A study of Mus musculus with 12 samples.

Results

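Total RNA was compared with newly made RNA in wild-type (WT) mouse embryonic stem cells (ESCs), to find which functions and which classes of RNA had the highest and lowest total to 4sU ratio. The comparison used 6 of the 12 libraries of the series, 3 of total RNA and 3 of 4sU RNA. Of the 51467 genes in the count table, 12994 had 3 CPM or more (CPM expresses a count relative to the library total) in 3 or more of the 6 libraries and were tested. All cells of the series were grown in medium with 15% serum, LIF and 2i (PD0325901 and CHIR99021), and all were given 500 uM 4-thiouridine (4sU) for 30 min before the RNA was extracted and split. The other 6 libraries came from ESCs without Dgcr8 (Dgcr8 KO), handled in the same way, and served to repeat the measurement and to test where the ratio differed between genotypes. The labels do not say whether the replicates were separate cultures, so the p-values measure the spread between these libraries, which may be technical.

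4sU is a uridine analogue that cells build into RNA while it is made. RNA that carries it can be biotinylated and pulled out on streptavidin, so the 4sU fraction reflects synthesis during the pulse, while total RNA reflects everything that has accumulated. At steady state the level of an RNA is set by its production and its decay, and the ratio of total to 4sU signal is used as a measure of stability. mRNAs of immediate-early and signalling genes are known for fast decay, and those of metabolic enzymes for slow decay. Transcripts that are processed away soon after they are made, such as introns and upstream antisense RNAs, are seen mainly in the 4sU fraction.

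The 4sU libraries held 4593914 to 6005526 counts and the total libraries 6873708 to 9295245 counts. Spearman correlations between replicates were 0.988 to 0.990 for 4sU and 0.995 for total RNA, and replicate pairs differed by more than sampling noise (chi-square of 1.79 to 5.61 per degree of freedom). A principal component analysis put 94.2% of the variance on component 1. All 26 pluripotency factors listed were tested, whereas none of 12 fibroblast markers reached the filter, their highest WT count being 25. Of 17 primed and germ layer markers, 8 were tested. In bulk samples, fewer cells of a type and less RNA per cell cannot be told apart. Protein-coding nuclear genes took 82.8% to 84.1% of the 4sU counts and 93.7% to 93.9% of the total counts.

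Ratios are given as the log2 of total over 4sU signal with the median of all tested genes set to 0, since the scaling of the libraries alone fixes the zero of such a ratio. Before centring, that median lay at 0.0023 with TMM scaling and at -0.19 with upper quartile scaling, a shift that leaves the order of genes as it is. A gene was called at an adjusted p under 0.05 in limma (Benjamini-Hochberg over all tested genes) and a ratio beyond 1 on the log2 scale, in either direction. The ratio was called higher for 2324 genes (17.9% of those tested) and lower for 3310 (25.5%). Among 11306 protein-coding genes, 2243 were higher (19.8%) and 1901 lower (16.8%). The 3 total and 3 4sU values did not overlap for 11040 genes, which is 85.0% of all tested, so separation of the libraries is the rule and the size of the ratio carries the description. The middle 90% of protein-coding genes spanned an 11.9-fold range of ratios, and the median standard error was 0.10. The filter admitted 1288 genes through the 4sU libraries alone and 146 through the total libraries alone. Such genes had to differ, so counts over classes rich in them are not support for a direction.

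Among lists of protein-coding genes, tRNA synthetases, enzymes of central metabolism and proteasome subunits had the highest medians. Cytosolic tRNA synthetases, which charge tRNAs with amino acids, had a median ratio of 1.58 (1.59 ± 0.02 over the 3 same-numbered pairs of libraries, SD), and 18 of 20 were higher with none lower. Citric acid cycle enzymes had a median of 1.52 (1.48 ± 0.07), with 14 of 16 higher and none lower. Glycolysis enzymes had a median of 1.58 (1.59 ± 0.14), with 12 of 18 higher and 1 lower. Proteasome subunits, the parts of the main protein-degrading complex, had a median of 1.45 (1.5 ± 0.06), with 26 of 31 higher and none lower. For comparison, the median over all protein-coding genes was 0.18.

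Single genes of these lists were tight between replicates. Idh2 (ENSMUSG00000030541.16, chr7:80094846-80115392, minus strand of mm10), the mitochondrial NADP-dependent isocitrate dehydrogenase, had 69.6, 70.9 and 80.7 scaled CPM in the 4sU libraries and 364, 369 and 373 in the total libraries. The groups lay far apart, and the ratio was 2.32 ± 0.07 (SE), or 5.0-fold above the median gene (limma, adjusted p = 4.5e-19). Vars, the valyl-tRNA synthetase, had 86.8, 85.9 and 85.5 in 4sU RNA and 439, 433 and 465 in total RNA, a ratio of 2.37 ± 0.06. Pkm, the pyruvate kinase of glycolysis, had 424, 465 and 424 in 4sU RNA and 1864, 1972 and 1939 in total RNA, a ratio of 2.14 ± 0.05. Psmd14, the deubiquitinase of the proteasome lid, had 41.1, 45.8 and 39.4 in 4sU RNA and 210, 218 and 206 in total RNA, a ratio of 2.33 ± 0.08. In each of these genes every total library exceeded every 4sU library. The lowest members were still near or above the median gene for tRNA synthetases (Farsa, 0.79) and citric acid cycle enzymes (Mdh2, 0.35).

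Gapdh, the glycolytic glyceraldehyde-3-phosphate dehydrogenase, was the exception in its list. It had 60.5, 78.6 and 46.6 scaled CPM in 4sU RNA and 6.62, 7.69 and 4.56 in total RNA, a ratio of -3.29 ± 0.21 (limma, adjusted p = 9.7e-13). Its transcript is largely repeated elsewhere: 82.5% of its 50-base windows, the read length used, were found at another annotated locus. Reads that map to more than 1 place were not counted, so its level rests on a small part of the transcript. The next lowest, Eno1, had a ratio of 0.03 and 72.2% shared windows. Over the 9 glycolysis genes with at most 10% shared windows the median was 1.68, with 6 higher and none lower. The part of shared sequence in the ratio of Gapdh was not tested.

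Other cell-building functions followed in order. Chaperonins and HSP70/HSP90 chaperones had a median of 1.25, with 11 of 17 higher and none lower, from Hsp90ab1 and Hspa8 at the bottom (-0.34 and -0.17) to the mitochondrial HSP90 Trap1 at the top (2.13). Secretory pathway genes had a median of 0.95, with 13 of 28 higher and 1 lower. Sm and snRNP proteins of the spliceosome had a median of 0.89, led by the U5 components Eftud2 (1.84) and Snrnp200 (1.75). Translation factors had a median of 0.75, with 15 of 41 higher and 3 lower, and ran from Eif1 (-2.98) to Eif3i (2.09). Cytoskeletal genes (0.57), cholesterol synthesis genes (0.49), mitochondrial ribosomal proteins (0.45) and replication licensing genes (0.43) lay nearer the middle. Higher were 8 of 25 cytoskeletal genes, 7 of 20 cholesterol synthesis genes, 15 of 76 mitochondrial ribosomal proteins and 6 of 22 replication licensing genes. The share for mitochondrial ribosomal proteins (19.7%) was no larger than that over all protein-coding genes (19.8%). Each of these 4 lists had at most 2 lower members.

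**Figure D1:**
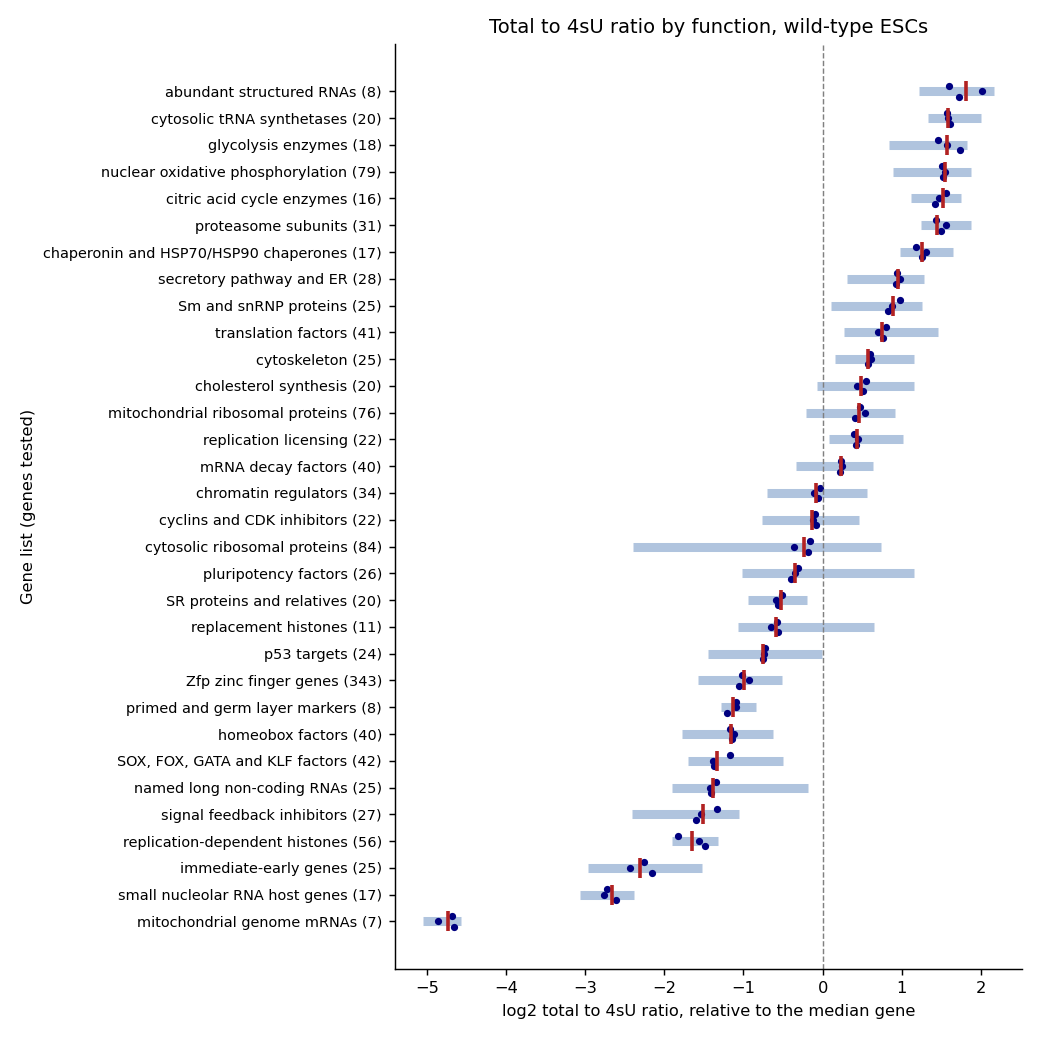
Total to 4sU ratio of each gene list in wild-type ESCs (x axis, log2, median of all genes at 0; y axis, list with the number of genes tested). Red ticks are list medians, blue points the medians in the 3 same-numbered pairs of libraries, and bars the middle 50% of genes. Medians run from 1.81 for abundant structured RNAs to -4.73 for mRNAs of the mitochondrial genome, and the pairs lie close together beside the distance between lists.

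The respiratory chain was split by the genome that encodes its subunits. Nuclear oxidative phosphorylation genes had a median of 1.55 (1.52 ± 0.02 over pairs), with 56 of 79 higher and 5 lower. The 5 lower genes all had over 10% shared windows, and of the 60 with less, 46 were higher and none lower. Cox4i1, a nuclear-encoded subunit of cytochrome c oxidase, had 94.7, 92.1 and 92.4 scaled CPM in 4sU RNA and 508, 526 and 544 in total RNA, a ratio of 2.5 ± 0.06. mRNAs of the mitochondrial genome had a median of -4.73 (-4.73 ± 0.11), and all 7 tested were lower. mt-Nd1, a subunit of complex I, had 14620, 17292 and 14620 in 4sU RNA and 679, 683 and 644 in total RNA, a ratio of -4.53 ± 0.06. The 4sU level was 23.2-fold above the total level relative to the median gene, with no overlap.

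mt-Co1, the catalytic subunit of cytochrome c oxidase, stood apart from the other mitochondrial mRNAs. It had 10435, 11935 and 10711 scaled CPM in 4sU RNA and 4389, 4528 and 4203 in total RNA, a ratio of -1.33 ± 0.05. The other 6 lay between -5.13 (mt-Nd6) and -4.53 (mt-Nd1). The remaining mitochondrial mRNAs, mt-Co2, mt-Co3, mt-Atp6, mt-Atp8, mt-Nd3 and mt-Nd4l, had at most 1 count in any WT library and were not tested. The transcripts of mt-Co1 and mt-Nd4 had 51.1% and 62.2% of windows found at another annotated locus. Mitochondrial tRNAs were low as well (9 tested, median -4.91, 8 lower and none higher), although 8 of the 9 passed the filter through 4sU libraries alone. Features of the mitochondrial genome took 5.56% to 6.51% of the 4sU counts against 0.585% to 0.631% of the total counts.

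Cytosolic ribosomal proteins had a median of -0.23 (-0.24 ± 0.11 over pairs), with 14 of 84 higher and 37 lower. The sign of this median turned without genes sharing windows (0.52) and with a filter of 1 count (0.41). Rps3, a small subunit protein, had 556, 624 and 571 scaled CPM in 4sU RNA and 1993, 2129 and 2016 in total RNA, a ratio of 1.81 ± 0.05. Rps29 had 23.6, 27.3 and 23.8 in 4sU RNA but 1.32, 0.79 and 1.09 in total RNA, a ratio of -4.51 ± 0.28. It passed the filter only through 4sU libraries, so the direction of its ratio was set by the filter. The list thus held genes at both ends of the range, and its middle 50% spread was the widest of the lists plotted with over 20 members.

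The ratio of ribosomal protein genes moved with the share of sequence found at other loci. Ribosomal protein genes are known for their many processed pseudogenes. Across the 84 genes, Spearman's rho between the ratio and the percent of shared windows was -0.46, given as a description because genes are not independent. The 9 genes with at most 10% shared windows had a median of 0.53, with 4 higher and 1 lower. The 41 genes between 10% and 50% had a median of 0.33. The 34 genes over 50% had a median of -1.58, with 21 lower and 3 higher. The part of read assignment in these ratios was not tested.

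**Figure D2:**
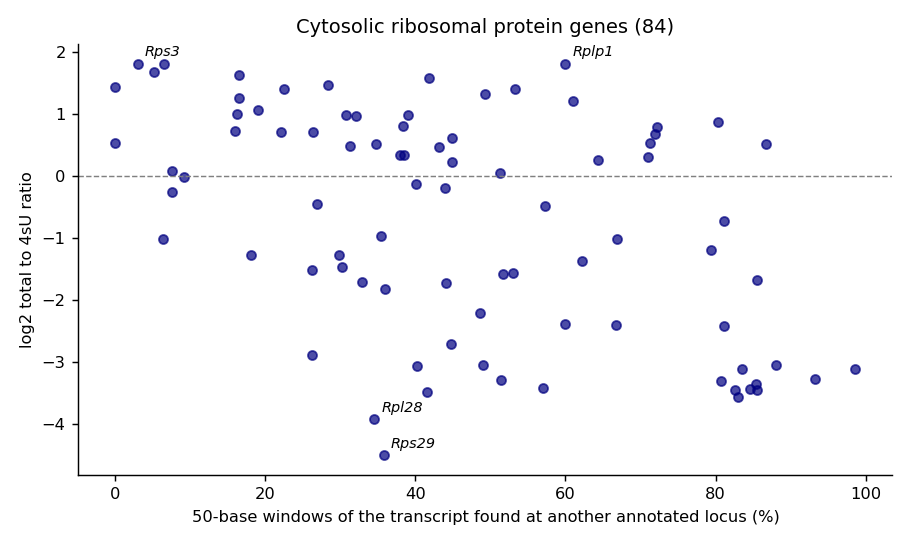
Total to 4sU ratio (y axis, log2, median of all genes at 0) of 84 cytosolic ribosomal protein genes against the percent of 50-base windows of the transcript that occur at another annotated locus (x axis). Each point is a gene. Genes over 50% have a median ratio of -1.58 and those at or under 10% a median of 0.53, with genes such as Rplp1 high and Rpl28 low against the trend.

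Immediate-early genes, which are switched on within minutes of a signal, had the lowest ratios among nuclear protein-coding lists. Their median was -2.31 (-2.28 ± 0.14 over pairs), and 23 of 25 were lower with none higher. None of the 25 had over 10% shared windows. Of the 25, 3 passed the filter only through 4sU libraries, so for these the direction was set by the filter. A further 6 listed genes did not reach the filter, among them Egr1, Fosb and Fosl1, with at most 22 counts in any WT library. Inhibitors that feed back on signalling, such as Sprouty and dual-specificity phosphatase genes, had a median of -1.51, with 21 of 27 lower and 1 higher (Lefty2, 1.16).

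Many of these mRNAs carry AU-rich elements, short U-rich motifs in the 3′ UTR that recruit decay factors. The heptamer TATTTAT was searched on the transcript strand of 3′ UTRs taken from GENCODE M21 on mm10. It was present in 70.8% of 24 immediate-early genes and 55.6% of 27 feedback inhibitors with a 3′ UTR, against 29.2% of all 11181. The heptamer was in 4 of 20 tRNA synthetases, and the shares were 27.8% for glycolysis enzymes and 31.2% for citric acid cycle enzymes. The first heptamer of the 6 lowest members of both lists with at least 2 copies is shown with its flanks and with the heptamer in capitals, in the same order as their ratios.
Dusp8: tttcgatttttTATTTATttaagctagtg
Zfp36: agtgggcccttTATTTATgacgactttat
Fos: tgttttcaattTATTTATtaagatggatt
Dusp1: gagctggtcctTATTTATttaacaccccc
Ccn1: gaatgttttttTATTTATcaaagtgtagc
Spry2: agtgtaaagaaTATTTATttgaagtttta
These windows lie at chr7:142081715-142081743 (minus strand), chr7:28376966-28376994 (minus), chr12:85477103-85477131 (plus), chr17:26506159-26506187 (minus), chr3:145647093-145647121 (minus) and chr14:105892092-105892120 (minus). A match describes the letters only and is not shown to be a site. Myc and Ccn2, the lowest immediate-early genes, are not among the genes shown. As the windows were picked from genes with at least 2 copies, they do not compare genes with and without the heptamer.

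The genes behind these windows had low and well separated total RNA. Fos, a subunit of the AP-1 transcription factor, had 22.3, 25.8 and 29.0 scaled CPM in 4sU RNA and 2.79, 2.72 and 2.93 in total RNA, a ratio of -3.15 ± 0.21. Zfp36, which itself binds AU-rich elements, had 36.4, 35 and 35.7 in 4sU RNA and 4.12, 3.62 and 4.12 in total RNA, a ratio of -3.17 ± 0.17. Dusp1, a phosphatase that turns off MAP kinases, had 175, 175 and 173 in 4sU RNA and 20.7, 18.7 and 23.5 in total RNA, a ratio of -3.06 ± 0.09 (limma, adjusted p = 5.4e-19). Every 4sU library lay above every total library for each of them. For Fos the filter fixed this, since no total library reached 3 CPM and Fos passed only through 4sU libraries. Ccn1, a secreted matrix protein, had 441, 479 and 439 in 4sU RNA and 55.5, 61.0 and 54.3 in total RNA, a ratio of -2.99 ± 0.07. Ier2 (ENSMUSG00000053560.4, chr8:84661331-84662852, minus strand), an immediate-early nuclear protein, had 778, 716 and 792 in 4sU RNA and 96.0, 97.3 and 98.1 in total RNA, a ratio of -2.97 ± 0.06.

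The immediate-early list was graded. Its lowest member was Myc (-4.49 ± 0.34), the growth-promoting transcription factor, with 14.2, 12.6 and 16.8 scaled CPM in 4sU RNA and 0.59, 0.45 and 0.76 in total RNA. Myc passed the filter only through 4sU libraries, so it had to be low, and its ratio rests on few total counts. Ccn2 followed at -3.37 ± 0.07. Klf4 (-1.99), Klf6 (-1.71), Klf10 (-1.55), Srf (-1.28) and Mcl1 (-1.11) were lower by less. Jund (-0.27, adjusted p = 6.9e-04) and Maff (-0.25, adjusted p = 0.32 in limma) were not called.

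Replication-dependent histones, made in S phase, had a median of -1.65 (-1.63 ± 0.18 over pairs), with 53 of 56 lower and none higher. Only 11 had at most 10% shared windows, and all 11 were lower (median -1.64). Their mRNAs end in a conserved stem-loop in place of a poly(A) tail. The histone stem-loop pattern was found on the transcript strand in 81.4% of 43 histone 3′ UTRs and in 0.2245% of 11138 other 3′ UTRs. It is shown in capitals for the lowest 2 and highest 2 histone genes that hold it.
Hist2h3c2: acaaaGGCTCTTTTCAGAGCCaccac
Hist3h2a: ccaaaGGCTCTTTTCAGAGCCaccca
Hist1h1c: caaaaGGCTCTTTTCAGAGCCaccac
Hist1h4h: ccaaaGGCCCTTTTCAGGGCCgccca
They lie at chr3:96238480-96238505 (minus strand), chr11:58955167-58955192 (plus), chr13:23739507-23739532 (plus) and chr13:23531453-23531478 (plus) of mm10. Hist2h3c2, an H3 gene with 63.5% shared windows, had 15.9, 20.9 and 18.3 scaled CPM in 4sU RNA and 1.18, 1.24 and 1.84 in total RNA, a ratio of -3.62 ± 0.27. Hist2h3c2 passed the filter only through 4sU libraries and so had to be low. Hist1h4h, an H4 gene, had 551, 522 and 731 in 4sU RNA and 391, 391 and 406 in total RNA, a ratio of -0.59 ± 0.08 that was not called. These were the lowest and the highest member of the list, and both held the loop. As the windows shown were picked from genes that hold it, they do not compare genes with and without it. Replacement histones, made outside S phase, had a median of -0.59 (0.05 with a filter of 1 count), with 3 of 11 higher (such as H2afy, 1.68) and 4 lower (such as H1fx, -1.60).

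Transcription factor families lay below the median gene. Genes named Zfp, most of which encode zinc finger proteins, had a median of -1.0 (-1.0 ± 0.06 over pairs), with 171 of 343 lower and 5 higher. Zfp703 was lowest (-4.36 ± 0.34) and Zfp512 highest (2.02 ± 0.12). Homeobox factors had a median of -1.16, with 26 of 40 lower, from Hoxc12 (-2.39) to Pbx2 (1.88). SOX, FOX, GATA and KLF factors had a median of -1.33, with 24 of 42 lower and none higher. Chromatin regulators as a list had a median of -0.09 (0.54 with a filter of 1 count), with Setd1b, a histone H3K4 methyltransferase, at -3.48 and Chd4, the NuRD remodeller, at 2.02.

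Pluripotency factors were spread over the whole range, with a median of -0.35 (-0.36 ± 0.04 over pairs), 8 of 26 higher and 7 lower. With a filter of 1 count the sign of the median turned (0.29), and among the 21 genes with at most 10% shared windows 4 were higher and 7 lower. Pou5f1 (Oct4, ENSMUSG00000024406.16, chr17:35506018-35510772, plus strand), the central factor of the network, had 194, 213 and 212 scaled CPM in 4sU RNA and 794, 778 and 773 in total RNA, a ratio of 1.92 ± 0.05. Dppa5a (1.82), Dnmt3l (1.75), Tdgf1 (1.34), Lin28a (1.33), Dppa4 (1.25), Tcl1 (1.17) and Dppa3 (1.12) were also higher. Sox2, the partner of Pou5f1, had 1183, 1230 and 1204 in 4sU RNA and 468, 466 and 452 in total RNA, a ratio of -1.38 ± 0.05. The naive-state factors Klf5 (-3.10 ± 0.08), Klf2 (-2.83 ± 0.07), Tbx3 (-2.12 ± 0.05) and Klf4 (-1.99 ± 0.06) were lowest, and Fgf4 (-1.36) and Nr5a2 (-1.05) were lower too. Nanog had 1367, 1294 and 1374 in 4sU RNA and 703, 721 and 713 in total RNA, so that its ratio of -0.92 ± 0.05 (limma, adjusted p = 6.8e-15) fell just inside the limit of 1. Esrrb (-0.90), Sall4 (-0.39), Zfp42 (-0.12) and Tfcp2l1 (0.55) were not called either.

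**Figure D3:**
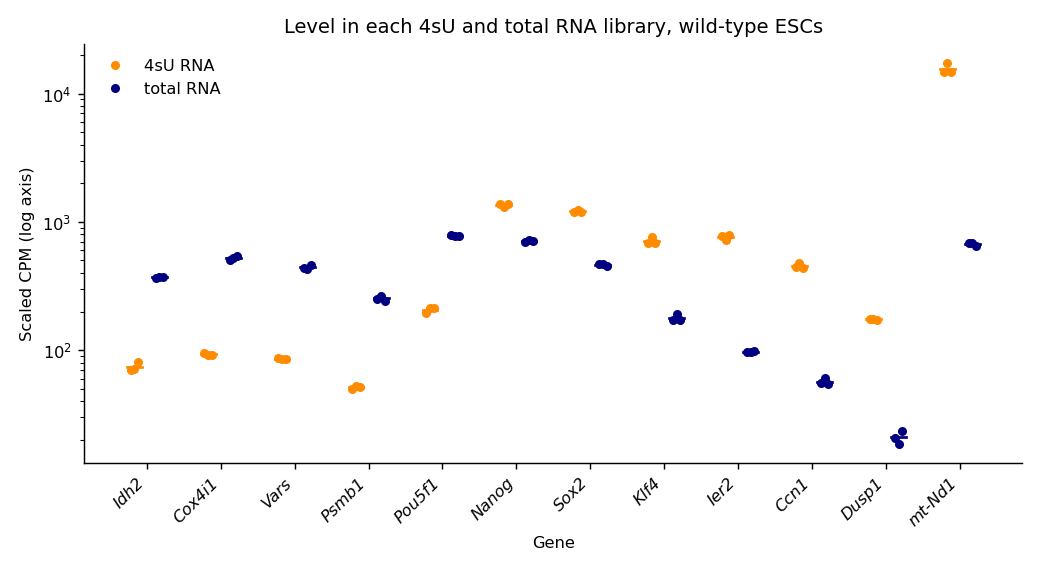
Scaled CPM (y axis, log) of 12 genes in the 3 4sU (orange) and 3 total RNA (blue) libraries of wild-type ESCs, with horizontal bars at the group means. The libraries of each gene separate without overlap, with total RNA above 4sU RNA from Idh2 to Pou5f1 and below it from Nanog (ratio -0.92) to mt-Nd1 (ratio -4.53).

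Genes for mRNA decay itself were close to the median gene, with a median of 0.23, 4 of 40 higher and 4 lower. Cnot1, the scaffold of the CCR4-NOT deadenylase, had 560, 508 and 560 scaled CPM in 4sU RNA and 1261, 1298 and 1327 in total RNA, a ratio of 1.25 ± 0.05. Skiv2l (1.75), a helicase of the exosome cofactor, and the deadenylase components Pan2 (1.34) and Cnot10 (1.33) were the other higher genes. The lower genes included Tob1 (-2.41 ± 0.07) and Tob2 (-1.88 ± 0.09), which bring CCR4-NOT to mRNAs, and the decapping enhancer Edc3 (-1.13). Ddx6 (0.21), Xrn1 (0.37) and Upf1 (0.81) were not called. Among cyclins and CDK inhibitors, Cdkn1a (p21) was at -3.36 and Ccnl1 at -3.00, while Ccnd3 (1.33) and Ccnb2 (1.18) were higher. SR proteins and relatives had a median of -0.53 (0.11 with a filter of 1 count), with the kinases Clk1 (-2.04) and Clk4 (-2.02) lowest. p53 targets had a median of -0.75, with 9 of 24 lower and 1 higher.

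The 6 genes that the study followed after transcription was blocked with actinomycin D spanned the range. Ccn1 (-2.99) and Amotl2 (-1.54) were lower, and Impact was higher (1.04 ± 0.06). Esrrb (-0.90), Sall4 (-0.39) and Pgap1 (-0.24) were not called.

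By RNA class, protein-coding genes had a median of 0.18 (0.18 ± 0.0045 over pairs). Long non-coding RNAs as a whole had a median of -2.80 (-2.72 ± 0.06), with 610 of 711 lower and 5 higher. Of these 711 genes, 424 passed the filter only through 4sU libraries. Over the 217 that reached 3 CPM in all 6 libraries the median was -1.52, with 137 lower and 2 higher, beside 0.22 over 10288 protein-coding genes held to the same limit. By type, antisense genes had a median of -3.06, bidirectional promoter RNAs -3.09, sense intronic RNAs -2.95, processed transcripts -2.54 and lincRNAs -2.35. TEC genes, unspliced loci to which GENCODE gives no type, had a median of -3.00, with 456 of 463 lower and none higher. Of the 463, 349 passed the filter through 4sU libraries alone, and 342 lay within another gene on the same strand. Among sense intronic RNAs, 72 of 73 lay within one too. Reads from unspliced introns of the outer gene can be counted for the locus inside it, and their part was not tested. Processed pseudogenes were mixed, with 41 of 137 higher and 74 lower, and their median of -1.27 became 0.04 with 3 CPM in all 6 libraries.

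The class make-up of both ends is given first over all tested genes, where the filter itself brings low-ratio non-coding genes in. Of the 650 genes with the lowest ratios (the lowest 5%, at or below -3.16), 14.3% were protein-coding, 38.2% long non-coding RNA, 28.6% TEC and 6.46% snoRNA. Of the 650 with the highest (1.63 and above), 92.3% were protein-coding, 4.15% processed pseudogenes and 0.462% long non-coding RNA. Over all tested genes these shares were 87.0% protein-coding, 5.47% long non-coding RNA, 3.56% TEC, 1.45% snoRNA and 1.05% processed pseudogenes. Among the 10802 genes with 3 CPM in all 6 libraries, the 540 lowest were 61.9% protein-coding, 15.6% long non-coding RNA, 9.44% TEC and 9.07% snoRNA, against 95.2%, 2.01%, 0.602% and 0.991% of all 10802. The 540 highest of them were 95.2% protein-coding and 0.185% long non-coding RNA. The 565 protein-coding genes in the highest 5% of that class held 35 of the 79 nuclear oxidative phosphorylation genes. The 565 in the lowest 5% held 54 of 343 Zfp genes and 23 of 84 cytosolic ribosomal proteins. They also held 15 of 25 immediate-early genes and 13 of 56 replication-dependent histones. By definition each end holds 5% of all protein-coding genes. Over 10% shared windows were found in 75 of the 84 ribosomal proteins and 45 of the 56 histones.

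**Figure D4:**
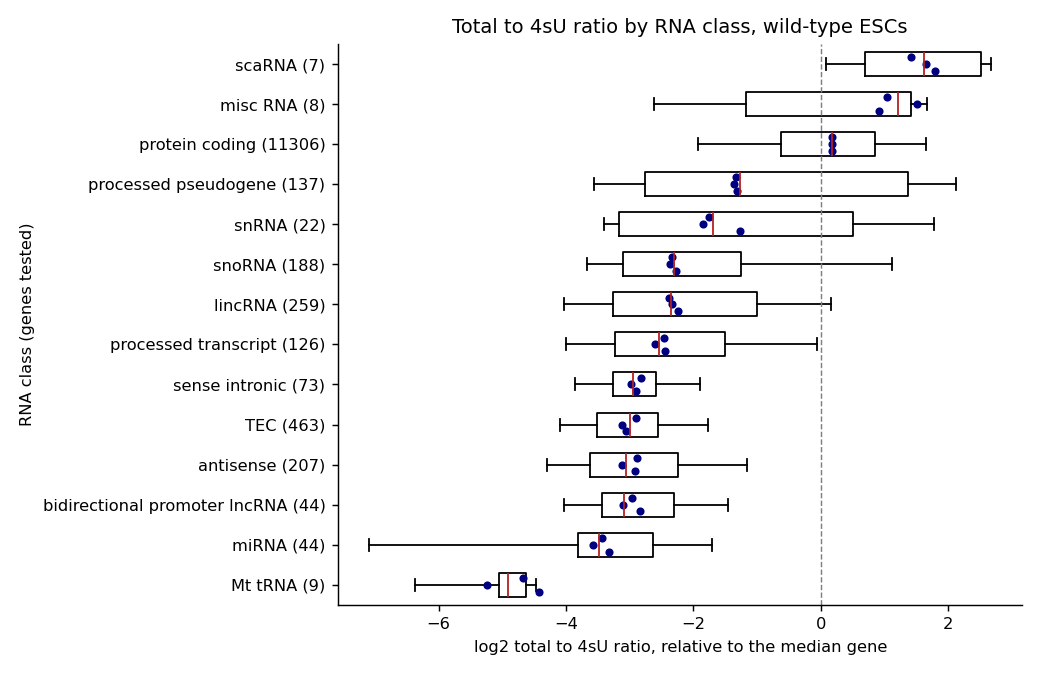
Total to 4sU ratio by RNA class in wild-type ESCs (x axis, log2, median of all genes at 0; y axis, class with the number of genes tested). Boxes show the middle 50% with the median in red, whiskers the 5th and 95th percentiles, and blue points the class medians in the 3 same-numbered pairs. scaRNAs (1.62) and protein-coding genes (0.18) lie at the high end, and long non-coding classes, miRNA hairpins (-3.47) and mitochondrial tRNAs (-4.91) at the low end.

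Well-known long non-coding RNAs ranged widely, with 14 of 25 lower and 1 higher. Malat1, an abundant nuclear RNA, had 2840, 3213 and 2352 scaled CPM in 4sU RNA and 3066, 3304 and 2954 in total RNA, so the groups overlapped (ratio 0.16 ± 0.07, limma adjusted p = 0.036). Its neighbour Neat1, the scaffold of paraspeckles, had 352, 413 and 320 in 4sU RNA and 83.0, 90.2 and 77.7 in total RNA, a ratio of -2.11 ± 0.08. Tsix, the antisense partner of Xist, was at -3.71, Dancr at -3.61, Kcnq1ot1 at -1.78 and Tug1 at -1.39. Meg3 (-0.10, adjusted p = 0.25) and Rian (0.09, adjusted p = 0.16), from the same imprinted locus, were not called in limma. H19 was the higher one (2.10 ± 0.36), at 0.67, 1.10 and 0.92 in 4sU RNA and 5.15, 3.51 and 3.91 in total RNA, and so rests on few counts.

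The abundant structured RNAs listed, which work without being translated, had high ratios. Of the 8 tested, 7 were higher and none lower, with a median of 1.81. Rpph1, the RNA of RNase P, had 2386, 1772 and 2833 scaled CPM in 4sU RNA and 14072, 12962 and 13499 in total RNA, a ratio of 2.55 ± 0.09. Rmrp, the RNA of RNase MRP, had 3198, 2381 and 3277 in 4sU RNA and 12526, 11481 and 12165 in total RNA, a ratio of 2.04 ± 0.07. Rn7sk, the 7SK RNA that restrains transcription elongation, had a ratio of 1.66 ± 0.05 and 68.1% shared windows. The Y RNAs Rny3 (1.96) and Rny1 (1.21) and the telomerase RNA Terc (1.22) were also higher, and the vault RNA Vaultrc5 was not called (-0.69). The snRNA class, outside this list, went mostly the other way, with 12 of 22 lower and 4 higher. Of these 22, 7 passed the filter only through 4sU libraries and 19 had over 10% shared windows. scaRNAs, which guide the modification of spliceosomal RNAs, had a median of 1.62, with 5 of 7 higher and none lower. That median was 0.52 without genes overlapping another on the same strand and -0.16 with a filter of 1 count, which admits more scaRNAs. Scarna6 was the highest called non-coding gene with at least 10 CPM, with 3.52, 2.86 and 2.59 in 4sU RNA and 39.4, 36.4 and 33.8 in total RNA, a ratio of 3.56 ± 0.22.

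snoRNAs, which guide the modification of ribosomal RNA, had a low median of -2.31 (-2.33 ± 0.05 over pairs), with 145 of 188 lower and 11 higher. Of the 188, 55 passed the filter only through 4sU libraries and 3 only through total libraries. Over the alternative settings the median lay between -2.44 and -1.23. Snord genes had a median of -2.45 and Snora genes of -2.16. Most snoRNAs are cut out of the introns of host genes, and 174 of the 188 lay within a host. Beside a tested host, 126 of 174 snoRNAs had a lower ratio than the host and 48 a higher one, with a median difference of -0.82. Of these 174, 54 passed the filter only through 4sU libraries, which favours a low ratio. Many share a host, such as Gas5 or Snhg1, and are not separate cases. The 95 hosts had a median of -0.53. Reads from an unspliced host intron that cross a snoRNA are counted for the snoRNA, and the part of such reads was not tested. Snord13 was an exception, at 10.2, 9.47 and 9.61 in 4sU RNA and 69.0, 65.8 and 58.7 in total RNA, a ratio of 2.70 ± 0.14. Non-coding snoRNA host genes, the Snhg genes, had a median of -2.67, with 15 of 17 lower and none higher. Snhg12 had 499, 583 and 504 in 4sU RNA and 58.8, 55 and 52.3 in total RNA, a ratio of -3.26 ± 0.07.

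At the upper end of the protein-coding genes with at least 10 CPM stood Galk1, the galactokinase, with 14.4, 19.4 and 17 scaled CPM in 4sU RNA and 125, 128 and 129 in total RNA. Its ratio was 2.93 ± 0.11, or 7.61-fold above the median gene. Ppib (2.75), a prolyl isomerase of the endoplasmic reticulum, Hprt (2.72), of purine salvage, Igfbp2 (2.63), the fatty acid oxidation enzymes Ech1 and Acaa2 (both 2.61), Lgals1 (2.59), the leucyl-tRNA synthetase Lars (2.56), Flna (2.54) and Rabac1 (2.52) made up the other 9. None of these 10 had over 10% shared windows. At the lower end were 6 mitochondrial mRNAs, Rps29, Actg1 (-4.04), the predicted gene Gm9958 (-4.03) and Lars2. Among these, mt-Nd4, Rps29 and Actg1 had over 10% shared windows, and the part of shared sequence in their ratios was not tested.

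Lars2, the mitochondrial leucyl-tRNA synthetase, was far outside the rest, with 47118, 47387 and 49122 scaled CPM in 4sU RNA and 113, 24.2 and 32.9 in total RNA, a ratio of -10.15 ± 0.22. The non-coding features Gm15564 (-10.98), Mir6236 (-9.36) and Gm23935 (-9.26) behaved alike. These 4 took 8.72% to 9.88% of the 4sU counts and 0.0053% to 0.023% of the total counts. Gm23935 differed widely between replicates, with 17220, 5008 and 4558 in the 4sU libraries. The protocol depleted total RNA of ribosomal RNA (rRNA), while whether the 4sU fraction was depleted is not given in the sources used here. The part of this step in the 4 ratios, and in those of the mitochondrial features, was not tested. Without these 4 features and all mitochondrial genes, the library type still gave 2437 higher and 3449 lower genes.

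Among protein-coding genes the number of exons had the closest relation to the ratio of the transcript features examined. Spearman's rho was 0.39 across 11306 genes (0.38 to 0.41 in single pairs). This and the following correlations describe genes, which are not independent and share libraries, depth and sequence composition. The 311 genes with 1 exon block had a median of -1.57 (-1.54 ± 0.06 over pairs), with 244 lower and 2 higher. Without the replication-dependent histones, the 258 single-exon genes that remained had a median of -1.53. The median passed through -0.54 for 3 to 4 exons and 0.36 for 9 to 16, and reached 0.79 for the 458 genes with over 32 exons, of which 171 were higher and 9 lower. Genomic span gave a rho of 0.22 and coding length of 0.08.

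Longer 3′ UTRs went with lower ratios (rho = -0.19 among protein-coding genes, and -0.08 with a filter of 1 count). Over genes of all classes, where those without a 3′ UTR count as 0 bases, the rho was 0.13. Genes with a 3′ UTR of 1 to 250 bases had a median of 0.58, and those over 4000 bases a median of -0.18. The number of TATTTAT heptamers gave a rho of -0.13 across 11181 genes (-0.07 with a filter of 1 count). The 7916 genes without a heptamer had a median of 0.28, those with 1 had 0.06, those with 2 had -0.09, those with 3 to 4 had -0.23 and the 64 genes with more had -0.56. As long 3′ UTRs hold more of any motif, the heptamer was also read at like length. Among 3′ UTRs of over 500 and up to 1000 bases the median was 0.30 without a heptamer and -0.43 with 2 or more, among those of up to 2000 bases it was 0.13 and -0.14, and among those of up to 4000 bases 0.03 and -0.11. The uridine share of the transcript, which together with its length limits how much 4sU an RNA can carry, gave a rho of -0.02. Over genes of all classes that rho was -0.14. GC content gave -0.02 and 0.09 in the same 2 sets, and exonic length -0.09 and 0.06. The part of labelling in the ratios was not tested.

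**Figure D5:**
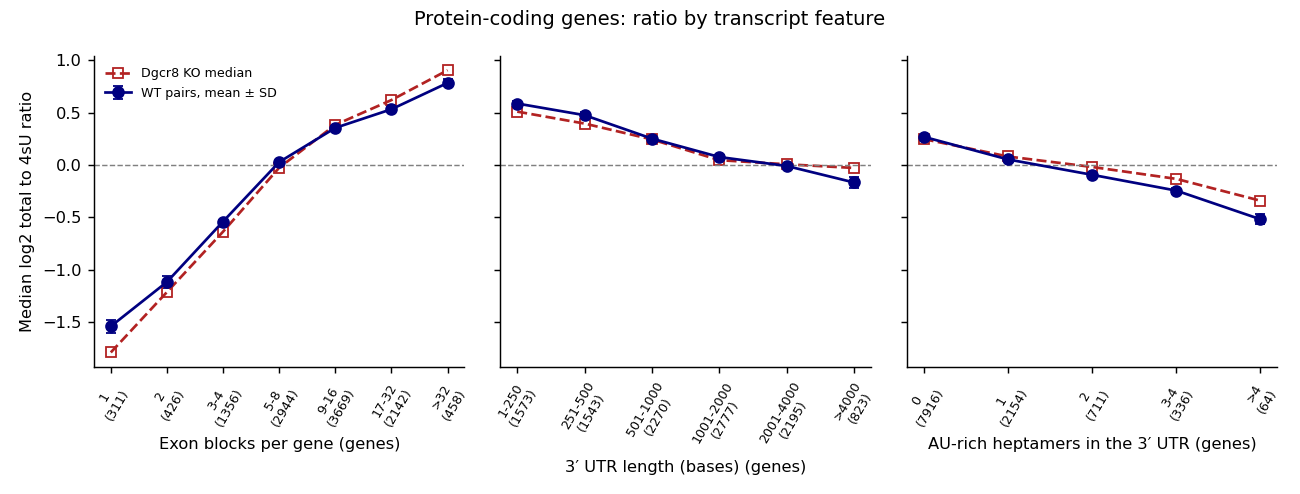
Median total to 4sU ratio of protein-coding genes (y axis, log2, median of all genes at 0) by exon number, 3′ UTR length in bases and number of TATTTAT heptamers (x axes, with the number of genes). Blue points are the mean ± SD over the 3 same-numbered pairs of wild-type libraries, and red squares the medians in Dgcr8 KO. The median climbs from -1.57 to 0.79 with exon number and declines with 3′ UTR length and heptamer number in both genotypes.

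The 6 Dgcr8 KO libraries, which had no part in choosing the genes, gave much the same order. Dgcr8 is needed to cut miRNA hairpins from their primary transcripts, so that its loss removes nearly all miRNAs. Counts over the whole Dgcr8 gene were 30.9 to 32.7 CPM in the 3 total libraries of Dgcr8 KO against 85.6 to 102 CPM in WT, and 74.6 to 93.7 against at least 112 CPM in 4sU RNA, with no overlap. Across the 12994 genes the ratios of the 2 genotypes had a Spearman's rho of 0.95 and a median absolute difference of 0.21. In Dgcr8 KO the median was 1.64 for tRNA synthetases, 1.62 for citric acid cycle enzymes, 1.39 for nuclear oxidative phosphorylation, -2.0 for replication-dependent histones, -2.71 for immediate-early genes and -4.10 for mitochondrial mRNAs. Long non-coding RNAs had a median of -2.76 there and protein-coding genes of 0.17.

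The ratio itself differed between genotypes for 216 of 12994 genes (1.66%) in the interaction test of limma, 131 higher and 85 lower in Dgcr8 KO. Of the miRNA hairpin loci, 13 of 44 were called, 12 of them higher in Dgcr8 KO. As 29 of the 44 passed the filter only through WT 4sU libraries, which favours low ratios in WT, the count is split: 5 of those 29 were called and 8 of the other 15. The median of the 44 was -3.47 in WT and -2.84 in Dgcr8 KO. The cluster from Mir290a to Mir295, the main miRNA cluster of ESCs, was looked at after its values were seen, and all 7 tested hairpins were called, by 1.29 to 1.66 on the log2 scale. They share 1 primary transcript and are not separate cases, and outside the cluster 6 of 37 hairpins were called. These counts come from the primary transcript at the hairpin and not from mature miRNAs. The long miRNA host RNAs Mir17hg (-3.37 in WT and -1.31 in Dgcr8 KO) and Mirg (-2.28 and 0.29) were higher in Dgcr8 KO as well. None of the tRNA synthetases, glycolysis, citric acid cycle, proteasome or oxidative phosphorylation genes was called in that test, and 2 of 25 immediate-early genes were, Junb and Maff.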

How the data were processed

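4sU and total RNA were sequenced from WT and Dgcr8 KO ESCs in 3 replicates each, with group and number given by each title. The authors deposited raw counts of reads for each gene. The authors trimmed reads (Cutadapt 1.14), kept reads mapping to 1 place in mm10 (STAR 2.5.3a) and counted them on the reverse strand (featureCounts 1.5.3, GENCODE M14 without rRNA genes), so reads shared by several loci or genes are missing. The table holds 51467 genes and 92 spike-in sequences, which had 1 WT count in all and were left out.

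Genes with at least 3 CPM in at least 3 of the 6 libraries were fitted with voom in limma 3.58.1 after TMM scaling in edgeR 4.0.16 (R 4.3.3). Scaled CPM are CPM after TMM. The contrast was total minus 4sU with the median of all genes subtracted, and genes were called at an adjusted p (Benjamini-Hochberg) under 0.05 and a log2 ratio beyond 1. Classes and lists are described by medians and counts, with the SD over the 3 pairs of libraries that share a number. The members and lists were chosen with earlier results of these data known. Biotypes, transcripts and 3′ UTRs came from GENCODE M21 (51274 genes matched by identifier), with 1 principal transcript per gene. A 50-base window counted as shared if it occurred at another annotated locus.

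Genes named are the 10 highest and lowest protein-coding and 5 highest and lowest non-coding called genes with at least 10 CPM and no overlap between groups, the 2 highest and lowest of each list and class, all members of 5 lists (immediate-early, pluripotency, named long non-coding RNA, structured RNA, mRNA decay) and the 6 actinomycin D genes. Snord and Snora subsets, the Mir290a to Mir295 cluster, the members whose windows are shown and the 4sU-dominant features were looked at after values were seen. No window was taken from 1 chromosome that is not reported here. On simulated counts, limma recovered 99.5% of 197 genes changed by 1.5 on the log2 scale among 12654. Far fewer genes were changed there than the 5634 called in the data, so scaling and centring were not tested at that extent. Alternatives were edgeR and DESeq2 1.42.0 tests, limma-trend, other scalings and filters, a replicate block, and each library left out. Count floors of 3 cover counting error only.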

Additional observations from a re-analysis of the deposited data

Results flagged for a closer look

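The total to 4sU ratio of 12 genes among those named differed between Dgcr8 KO and WT by the interaction test of limma, each given here as Dgcr8 KO minus WT on the log2 scale. Higher in Dgcr8 KO were the miRNA host RNAs Mirg (2.57), Mir17hg (2.07) and Dleu2 (1.46), whose hairpins Dgcr8 helps to cut, the CDK inhibitor Cdkn1a (1.01), and the scaRNAs Gm22767 (1.11) and Gm25395 (1.08). Lower in Dgcr8 KO were the AP-1 gene Junb (-1.19), the transcription factor gene Maff (-1.47) and the miRNA-class gene Gm26298 (-1.53), whose windows are all shared with another locus. Gm43387 (3.15) and Scamp4 (2.52) had at most 1 count in each WT total library, and Ccdc22 (-1.86) at most 3 counts in each WT 4sU library, so these 3 differences depend on the prior count and are no bounds. Why the ratios differ was not tested.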

How the results depend on the processing

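The count of called genes (5634) was kept within 1.5 times by edgeR, DESeq2, limma-trend, every scaling, the model of all 12 libraries, the replicate block and each left-out library. Asking for 3 CPM in all 6 libraries tested fewer genes and called 3693 (1545 higher, 2148 lower). A filter of 1 count tested more and called 11040 (5952 higher, 5088 lower), and no limit on the ratio called 10946 (5431 higher, 5515 lower). The median of long non-coding RNAs minus that of protein-coding genes (-2.98) was -2.74 with limma-trend, -1.75 with 3 CPM in all 6 libraries, -1.46 with a filter of 1 count, -3.06 without genes sharing windows, and -3.01 to -2.92 with 1 library left out. The filters change which genes enter the medians. The rho for exon number (0.394) was 0.524 over all genes, 0.374 with 3 CPM in all 6 libraries and 0.418 without genes overlapping another on the same strand. The difference between citric acid cycle and immediate-early medians (3.83) moved by less than the spread between pairs under each alternative, but a shift common to all genes cancels in it. Single medians did move: 134 of 638 list values and 54 of 180 class values moved by more than that spread. The filter of 1 count, where many more genes set the zero, moved all 41 list and class medians, with a median shift of 0.64, and turned the sign of 8. Asking for 3 CPM in all 6 libraries moved 35 (median shift -0.18) and turned 2, and leaving out genes sharing windows moved 17 and turned 1. Among the medians that turned and are not given above with their list were those of cyclins and CDK inhibitors (-0.13, then 0.51 with a filter of 1 count) and snRNAs (-1.70, then 0.0077 with 3 CPM in all 6 libraries). The genotype test called 118 in place of 216 genes with 3 CPM in all 12 libraries. No called gene among the 311 named changed sign under any alternative, and 33 of 215 called ones lost the call under at least 1, mostly with the filter of 1 count. The cause of the other changes was not tested.

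With the replicate block, 5618 genes were called (2314 higher, 3304 lower), and the genotype test called 223. Deviations of same-numbered total and 4sU libraries correlated weakly, at 0.053, 0.110 and 0.124, and each library correlated best with its own number. Libraries of unlike number correlated at -0.106 to -0.005. Deviations were taken from the mean of each group and cancel within it, so positive values for like numbers by themselves push the others negative. The labels do not say whether libraries of 1 number came from 1 RNA sample. Leaving out genes sharing windows, or the 4 dominant features with mitochondrial genes, was chosen after seeing the data. Depth limits genes near 3 CPM, and 52 tested genes had at most 3 counts in every library of a group.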
